A study of Bos taurus with 35 samples.

Results

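The genes described here encode proteins of the mitochondrial ribosome, with symbols that start with MRPL (large subunit) or MRPS (small subunit), and proteins of the machinery that carries other proteins into mitochondria, with symbols that start with TOMM (outer membrane) or TIMM (inner membrane and the space between the membranes). Members were selected on measured values of these samples, as the genes with such a symbol in the study's list of differentially expressed (DE) genes. Each Ensembl identifier was taken once and matched by identifier to the table of read counts. The rule found 25 of the 27607 genes in the table, made up of 13 MRPL, 9 MRPS, 1 TIMM and 2 TOMM genes, and all 25 were among the 14630 genes left after the filter on low counts. Bovine RefSeq annotation (assembly ARS-UCD2.0) names 103 protein-coding genes with these prefixes, and the other 78 were not analysed here because no source used here pairs their symbols with identifiers of the count table. All 25 members stand in that list for the comparison of 72 h with 0 h, 24 among the upregulated genes and MRPS35 among the downregulated ones. MRPL40 stands there for 48 h as well, and 0 members do for 6 or 24 h. Symbols came from a shortened copy of that list, and of the genes called at 72 h in the fit described here, 274 of 1434 upregulated and 423 of 2256 downregulated ones carried no symbol. Of the 423, 188 were missing from the copy altogether, and no upregulated gene was, so that members could have been missed more readily among downregulated genes. The change from 0 h to 72 h therefore chose the members and is given here as a description.

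The muscle was *longissimus thoracis* (*LT*), which runs along the back, and cores were cut from carcasses of 7 British × Continental crossbred beef heifers that had been raised and finished alike, with no age given in the labels. Each animal was sampled at 5 time points *post-mortem*, named 0, 6, 24, 48 and 72 h, which gave 35 RNA-Seq libraries and 7 animals per time point. The 0 h core was itself taken after slaughter, so that no sample is living muscle. By design the groups differ in the time that the carcass had spent in a drip cooler. The score of RNA integrity (RIN) was also slightly lower on average in the latest groups. Time in the cooler was therefore not the single difference between the groups. Total counts per library ranged from 20568418 to 104275821, with a median of 40133660. Levels are normalised read counts (CPM, the count of a gene scaled to a library of fixed size), and since gene lengths were not used, levels are compared within a gene and never between genes. Skeletal muscle fibre markers were abundant in every library, with CKM, TNNT1 and TNNT3 (the 3 of 10 listed markers that the source names) summing to between 23808 and 55685 CPM.

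Mitochondria hold a small genome of their own, and the ribosome that reads it makes only a few core subunits of the respiratory chain. Every protein of that ribosome is encoded in the nucleus, translated in the cytosol and imported through the TOM complex of the outer membrane and the TIM complexes behind it. Some of these ribosomal proteins have a counterpart in bacterial ribosomes, and others are found only in mitochondria. Muscle depends on the respiratory chain for much of its ATP while blood is flowing.

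At 72 h *post-mortem* 24 members were upregulated and 1 was downregulated relative to 0 h, where a gene was called DE at a false discovery rate (FDR) below 0.05 in edgeR's quasi-likelihood test and a fold change above 1.5. Over all 14630 genes, 9.8% were upregulated and 15.4% downregulated by the same rule in this comparison, and since the rule that chose the members used it, nothing is read from these counts. The median log2 fold change of the members was 0.68, beside 0.01 for all genes tested. The 24 members were each higher at 72 h in 7 of 7 animals, and in 23 of them every 72 h sample was above every 0 h sample, against 7.9% of all genes with higher groups that did not overlap. The exceptions were MRPL27, whose groups overlapped, and MRPS35, which was lower in 6 of 7 animals. These counts follow in large part from the choice of members too, and nothing is read from them. In bulk tissue a larger share of cells that hold a transcript and more of that transcript per cell cannot be told apart.

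The summed level of the 25 members in the 0 h samples was 664 ± 40.6 CPM (SD, n = 7). It was 709 ± 53.8 CPM after 6 h and 741 ± 72.1 CPM after 24 h, then 873 ± 79.5 CPM after 48 h and 1067 ± 127 CPM after 72 h. The sum at 72 h was lowest in animal 202, at 888 CPM, and highest in animal 206, at 1214 CPM. Even the lowest of these exceeded the highest 0 h sum, which was 733 CPM in animal 103.

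**Figure D1:**
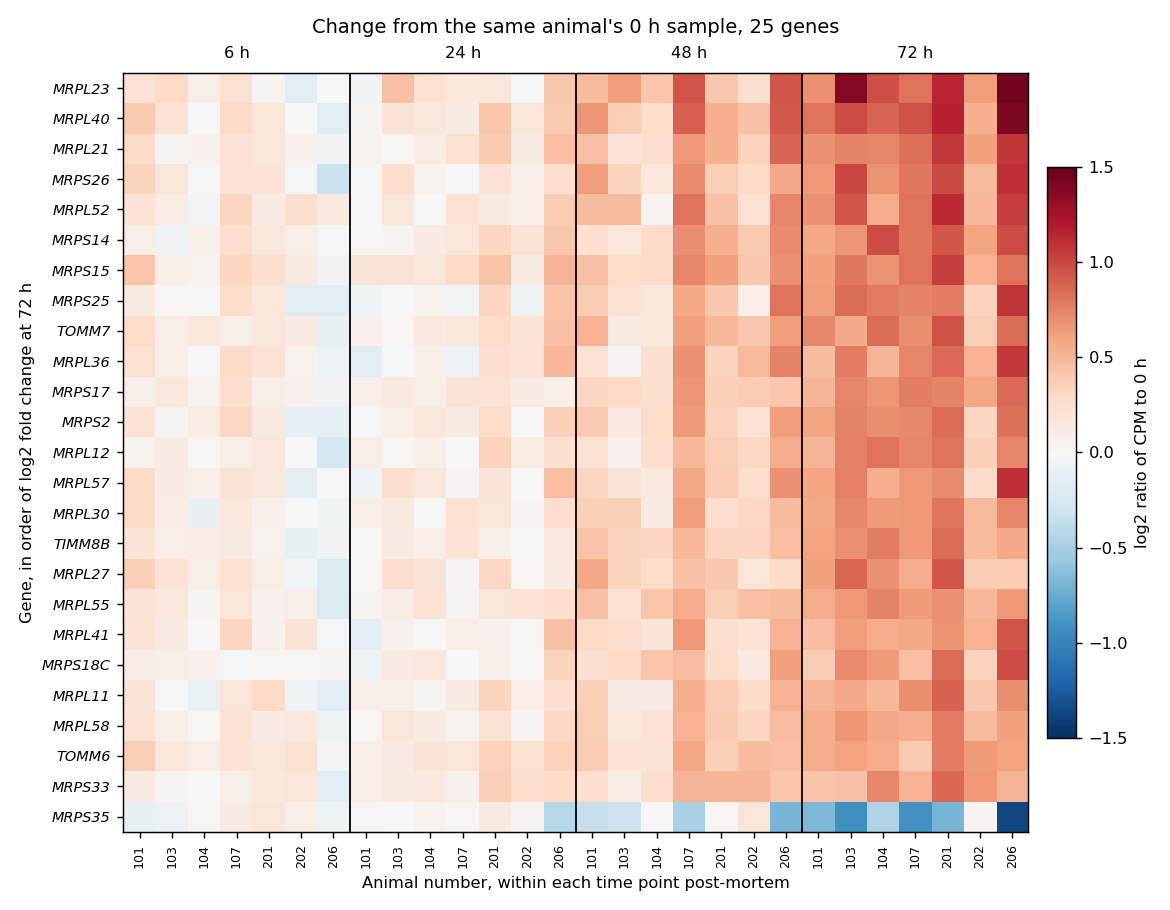
Each cell is 1 gene in 1 sample, coloured by the log2 ratio of its CPM to that of the same animal at 0 h (red higher, blue lower), with animals side by side within 6, 24, 48 and 72 h and genes ordered by their log2 fold change at 72 h. All 168 cells of the 24 upregulated genes are above 0 at 48 h and at 72 h, against 130 at 6 h and 149 at 24 h, while MRPS35 is below 0 in 6 of 7 animals at 72 h.

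Among ribosomal proteins with a bacterial counterpart, 12 were members and all 12 were upregulated at 72 h, with a median log2 fold change of 0.69. MRPL23 (ENSBTAG00000000103), which sits near the exit of the tunnel that the nascent chain passes through, had the largest change of all members. Its level at 0 h was 11.9 CPM in the lowest, 12.6 in the median and 14.9 in the highest animal, and the same 3 values at 72 h were 19.2, 29.1 and 34.8 CPM. The ranges were apart, and the mean went from 12.8 ± 1.03 to 26.4 ± 6.34 CPM (log2 fold change 1.02, SE 0.09). At 72 h animals 101 and 202 were the lowest and animal 206 the highest, so that the spread between animals had widened with the level.

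MRPL21 (ENSBTAG00000004348), another protein of the large subunit, went from 26.3, 29.0 and 35.99 CPM in the lowest, median and highest animal at 0 h to 42.4, 48.1 and 62.3 CPM at 72 h (log2 fold change 0.82). MRPS14 (ENSBTAG00000001109), of the small subunit, stood at 29.9, 31.7 and 36.3 CPM before and 47.1, 57.7 and 65.6 CPM at 72 h (log2 fold change 0.79). In both genes the 72 h range began above the end of the 0 h range. MRPS15 (ENSBTAG00000024097), also of the small subunit, was the member with the narrowest spread at 0 h, from 28.7 to 32.7 CPM with a coefficient of variation of 5.26%, and its 72 h samples ranged from 46.0 to 61.85 CPM.

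The other 8 members with a bacterial counterpart had log2 fold changes between 0.61 and 0.70 at 72 h. MRPL11 (0.61) forms the base of the stalk that recruits translation factors, and MRPL12 (0.68) is the counterpart of the stalk protein itself. MRPL12 ranged from 24.96 to 35.4 CPM at 0 h and from 37.3 to 58.85 CPM at 72 h, and animal 206 was the highest at both times. MRPL27 (0.63) lies close to the site where peptide bonds form. It was the upregulated member whose ranges overlapped, since animal 206 already had 48.5 CPM at 0 h while animal 202 had 47.1 CPM at 72 h.

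MRPL36 (0.70), a small protein of the large subunit, ranged from 7.96 to 10.3 CPM at 0 h and from 11.4 to 18.75 CPM at 72 h. MRPL30 changed by 0.66. The small subunit proteins MRPS2, MRPS17 and MRPS18C changed by 0.68, 0.69 and 0.62. MRPS17 went from 12.0, 12.9 and 16.7 CPM in the lowest, median and highest animal to 19.35, 21.6 and 27.7 CPM, with animal 103 the highest at both times. MRPS2 went from 24.7, 26.2 and 32.5 CPM to 32.7, 42.65 and 57.8 CPM, and its ranges were separated by a narrow gap, between animal 206 at 0 h and animal 202 at 72 h.

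Of the 10 members that belong to the mitochondrial ribosome but not to bacterial ones, 9 were upregulated and MRPS35 was downregulated at 72 h, with a median log2 fold change of 0.65. MRPL40 (ENSBTAG00000019891), a large subunit protein, stood at 26.3, 36.2 and 40.7 CPM in the lowest, median and highest animal at 0 h and reached 46.4, 63.4 and 99.1 CPM by 72 h. Its log2 fold change was 0.96 (SE 0.09), and it was the single member already called at 48 h. Animal 206 alone reached 99.1 CPM, and the next highest animal, 103, had 80.2 CPM.

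The small subunit proteins MRPS25 (ENSBTAG00000013723) and MRPS26 (ENSBTAG00000000825) had log2 fold changes of 0.74 and 0.82 at 72 h. MRPS25 had the widest spread between animals at 0 h, with a coefficient of variation of 18.7%, and went from 25.1, 36.7 and 41.3 CPM to 43.0, 50.7 and 87.0 CPM. Its 72 h range lay just above its 0 h range, with animal 104 lowest and animal 206 highest at both times. Animal 206 was likewise the highest for MRPS26 at 72 h, with 45.96 CPM, and animal 202 the lowest, with 24.5 CPM.

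The others of this group were the large subunit proteins MRPL52 (0.81), MRPL57 (0.67), MRPL55 (0.63), MRPL41 (0.63) and MRPL58 (0.60), and MRPS33 (0.59) of the small subunit. MRPL58 is a peptidyl-tRNA hydrolase built into the large subunit and is known for rescuing stalled ribosomes. It ranged from 24.6 to 30.7 CPM at 0 h and from 36.1 to 51.8 CPM at 72 h. MRPL52 went from 11.4, 12.9 and 14.6 CPM in the lowest, median and highest animal to 17.85, 20.7 and 30.5 CPM, with animal 201 highest at 72 h. In both genes the ranges at 0 and 72 h were separate, and animal 202 was among the lowest at 72 h.

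The 3 import genes were all upregulated at 72 h, and the summed level of the 3 was 134 ± 11.1 CPM at 0 h and 214 ± 27.7 CPM at 72 h. TOMM7 (ENSBTAG00000051150) and TOMM6 (ENSBTAG00000008977) are small accessory subunits that surround the pore of the TOM complex, and TIMM8B (ENSBTAG00000002000) is a small chaperone that guides hydrophobic proteins across the space between the membranes. TOMM7 went from 51.5, 58.6 and 66.2 CPM to 74.5, 98.2 and 115.8 CPM at 72 h (log2 fold change 0.72). TIMM8B went from 33.9, 41.3 and 47.9 CPM to 53.15, 66.1 and 80.4 CPM (0.66), and TOMM6 from 29.9, 32.0 and 39.9 CPM to 42.1, 51.1 and 60.7 CPM (0.59). In all 3 genes the 0 h and 72 h ranges were separate.

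The threshold ran through the lower end of the members. MRPS33 (0.590), TOMM6 (0.592) and MRPL58 (0.602) lay just inside the log2 fold change of 0.585 that stands for 1.5-fold, followed by MRPL11 (0.608) and MRPS18C (0.623). Over all genes, 635 passed the FDR with a fold between 1.4 and 1.5 at 72 h, and genes of this family among them carried no symbol here. With RIN, the study's score of RNA integrity in each sample, as a covariate, 7 members lost their call at 72 h and 18 stayed upregulated. Against a null hypothesis of a 1.5-fold change (glmTreat), 8 remained upregulated and 0 downregulated. The shares of all genes called under these settings are not given here.

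**Figure D2:**
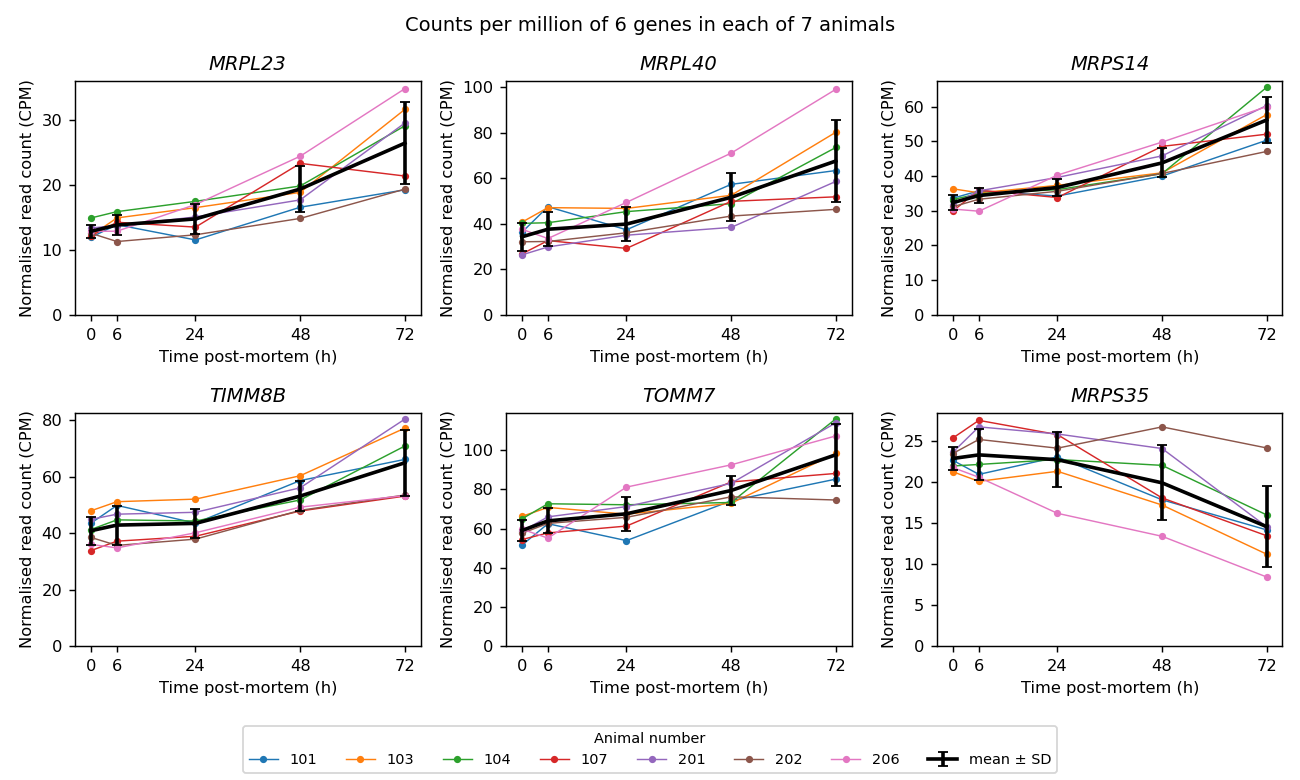
Normalised read counts (CPM, from 0 on each vertical axis) of 6 members against time *post-mortem* in hours, with a coloured line for each of 7 animals and the mean ± SD in black. The means of the 5 upregulated genes rise less up to 24 h than from 24 to 72 h. The ranges at 0 and 48 h are apart in MRPS14 and TOMM7 and overlap in MRPL23, MRPL40 and TIMM8B, and those at 0 and 72 h are apart in all 5. MRPS35 goes from 22.9 to 14.6 CPM on average with animal 202 remaining at 24.2 CPM.

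The intermediate times shared the 0 h samples with this comparison and are given side by side. The members had a median log2 fold change of 0.09 in the 6 h samples, 0.14 in the 24 h samples and 0.38 in the 48 h samples, and the median of all genes lay within 0.01 of 0 each time. At 6 h 0 members were called in edgeR's quasi-likelihood test, with 3 at an unadjusted p below 0.05 (7.9% of all genes higher) and 0 at an FDR below 0.05 in DESeq2's Wald test (2.31%), where 0.349% of all genes were called higher and 0.185% lower. At 24 h 0 were called as well (0.725% of all genes higher and 0.95% lower). Without the fold threshold, 3 members, MRPS15, TOMM6 and MRPS33, had an FDR below 0.05 at 24 h, beside 4.07% of all genes, 16 had an unadjusted p below 0.05, beside 12.3%, and DESeq2 gave 6 at an FDR below 0.05, beside 5.67%. At 48 h MRPL40 was the 1 member called, with a fold of 1.51, beside 2.96% of all genes called higher and 6.3% lower. MRPL23 missed the fold threshold narrowly (log2 fold change 0.58). The FDR alone was passed by 24 members, beside 21.9% of all genes, and in 9 of these every 48 h sample was above every 0 h sample, beside 3.11% of all genes. The count of 1 at 48 h was 0 without animal 107 or animal 206 and 2 without animal 104, 201 or 202.

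The fitted levels of the 24 upregulated members had a like order in time. In 22 of them the level was above the preceding one at each of the 4 steps from 0 to 72 h, and in MRPL41 and MRPL52 that of 24 h was slightly below that of 6 h. The first steps did not pass the test, since the lowest edgeR adjusted p of a member was 0.123 from 0 to 6 h and 0.713 from 6 to 24 h. The largest step was that from 48 to 72 h in 22 of the 25 members and that from 24 to 48 h in MRPL40, MRPL55 and TIMM8B, on the log2 scale and without regard to the unequal length of the intervals. At 24 h a median of 22.1% of the 72 h change had been reached, and at 48 h a median of 56.8%, with a range among the upregulated members of 48.7% in MRPL12 to 66.7% in MRPL55. TOMM6 and MRPS15 had the largest shares at 24 h, with 36.9% and 36.2% of their 72 h change. The 72 h change also chose the members, so that these shares and the size of the last step are a description.

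The members were also compared between 48 h and 6 h, a contrast of neither the 0 h nor the 72 h samples. It is not independent of the choice of members, since it comes from the same 7 carcasses. Its estimates of the spread and of the animal effects come from all 35 samples. The share among the other genes upregulated at 72 h was not computed, and most of all genes were not chosen for a rise. MRPL40, which also stands in the list for 48 h, is given here as a description only. All 24 upregulated members, or 23 apart from MRPL40, were higher at 48 h than at 6 h at an FDR below 0.05, where 15.7% of all genes were higher and 17.4% lower. None reached a fold of 1.5, so that 0 were called by the full rule (0.991% of all genes were called higher and 4.79% lower). The median log2 fold change of the 25 members was 0.30, with a range of -0.24 to 0.47, beside 0.01 for all genes. Of the 24 members, 21 were higher in 7 of 7 animals, MRPL12 and MRPL52 in 6 and MRPL36 in 5. DESeq2's Wald test also gave 24 higher and 0 lower at an FDR below 0.05 (17.2% of all genes higher), and edgeR with RIN as a covariate gave 22 (10.6% of all genes).

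The largest changes from 6 to 48 h were those of MRPL23 and MRPL40. MRPL23 was at 11.3, 13.9 and 15.9 CPM in the lowest, median and highest animal at 6 h and 14.8, 18.8 and 24.4 CPM at 48 h, with a log2 fold change of 0.47 (95% interval 0.29 to 0.66, edgeR adjusted p = 5.0e-04). MRPL40 was at 29.8, 33.55 and 47.5 CPM at 6 h and 38.4, 49.9 and 71.0 CPM at 48 h, with a log2 fold change of 0.45 (95% interval 0.26 to 0.64). In both genes the groups overlapped, and the differences within animals were positive in 7 of 7.

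The groups at 6 and 48 h did not overlap in 3 members, MRPS14, TOMM7 and MRPL11, as in 0.848% of all genes in this direction. MRPS14 reached 35.9 CPM in the highest animal at 6 h and 40.0 CPM in the lowest at 48 h. For TOMM7 the gap was narrow, from 72.6 to 72.9 CPM, and for MRPL11 it ran from 32.4 to 33.5 CPM. TIMM8B had the lowest adjusted p of the members, with a log2 fold change of 0.32 (SE 0.05, edgeR adjusted p = 4.75e-05). The ranges of TIMM8B overlapped, from 34.8 to 51.2 CPM at 6 h and from 47.9 to 60.35 CPM at 48 h, and animal 103 was the highest at both times.

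**Figure D3:**
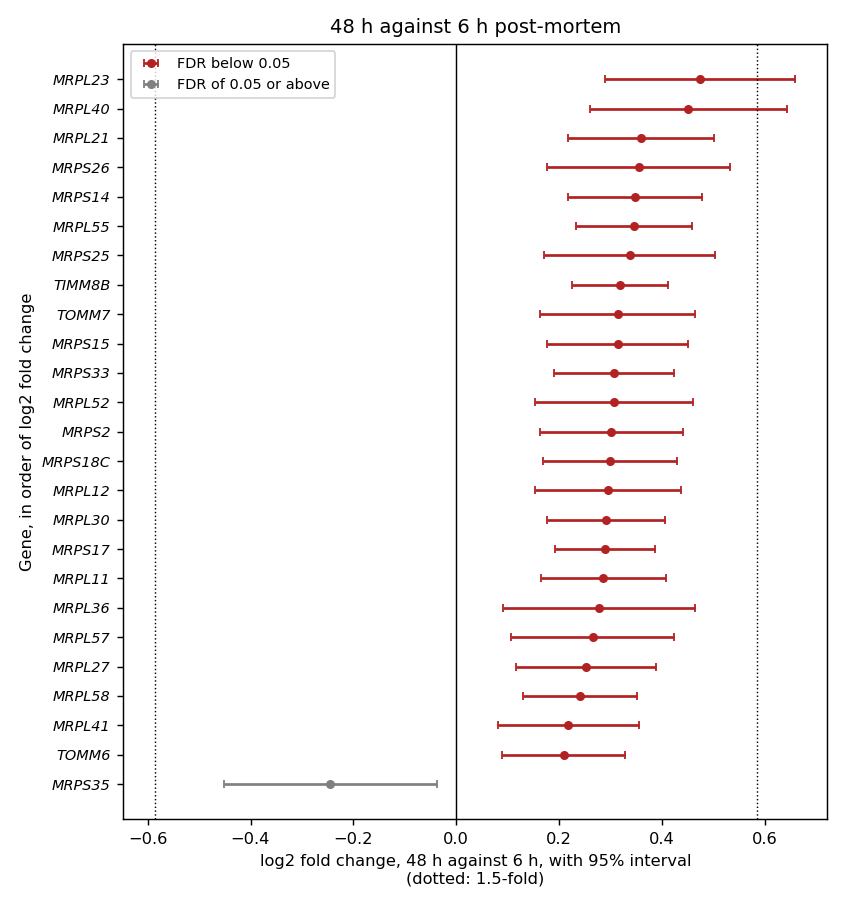
Log2 fold changes of the 25 members at 48 h against 6 h with 95% intervals, in red where the FDR was below 0.05 and in grey where it was not, and with dotted lines at a fold change of 1.5. The 24 red intervals lie above 0, none of the points reaches 1.5-fold, and MRPS35 is the single member below 0.

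The steps on either side of 24 h were fitted separately, and the difference between them was not tested. From 6 to 24 h 0 members passed an FDR of 0.05 (0.0342% of all genes were higher and 0.588% lower at that FDR) and 1, MRPS33, had an unadjusted p below 0.05 in edgeR (2.95% of all genes higher), while DESeq2 gave 0 at an FDR below 0.05 (0.082%). The median log2 fold change was 0.05, and it was 0.0025 without animal 206 and 0.11 without animal 101. The 95% intervals bound these changes, and the one with the highest upper limit, that of MRPL23, reached 0.27. From 24 to 48 h 24 members were higher at an FDR below 0.05, beside 9.56% of all genes higher and 9.84% lower, with a median log2 fold change of 0.25 and folds from 1.12 in TOMM6 to 1.31 in MRPL23. Under the full rule 0 were called (0.376% of all genes higher and 1.88% lower). The count of 24 was less stable than that of 48 h against 6 h, being 4 with RIN as a covariate (2.47% of all genes), 7 without animal 107 and 11 without animal 101. Without the animal as a block it was 0, and that of 48 h against 6 h was 11. Shares of all genes without an animal or without the block are not given here. For these settings a loss of calls among all genes was therefore not told apart from one among the members. With RIN the share of all genes that were higher fell as well, from 9.56% to 2.47%.

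From 48 to 72 h the same 24 members were higher and MRPS35 lower at an FDR below 0.05, where 16.5% of all genes were higher and 16.6% lower. The median log2 fold change was 0.29 and 0 members reached 1.5-fold, while 0.786% of all genes were called higher and 3.73% lower. This step holds the 72 h samples that chose the members and is a description.

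The animals differed in the size and timing of the change. Between 0 and 72 h the median log2 difference over the 25 members was lowest in animal 202, at 0.48, and highest in animals 201 and 206, at 0.84 each, with 0.58 in animal 101, 0.73 in 103, 0.68 in 104 and 0.70 in 107. Between 6 and 48 h animal 206 stood apart, with a median difference of 0.69, against 0.14 to 0.40 in the other 6. Animal 206 was also the single animal whose median lay below its own 0 h level at 6 h (-0.08). Without animal 206 the median log2 fold change from 6 to 48 h was 0.25 and at least 23 members passed the FDR whichever animal was left out.

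The spread between animals grew with time. The median coefficient of variation of the members was 10.04% in the 0 h and 10.8% in the 6 h samples, 13.9% after 24 h, 13.2% after 48 h and 16.0% after 72 h. MRPS35 was the most variable at 72 h, at 33.6%, and MRPL11 the least, at 9.31%.

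MRPS35 (ENSBTAG00000006369), a small subunit protein without a bacterial counterpart, was the member that moved the other way. Its level in the lowest, median and highest animal was 21.3, 22.7 and 25.4 CPM at 0 h and 20.1, 22.2 and 27.55 CPM at 6 h. After 24 h these values were 16.2, 23.1 and 25.9 CPM, after 48 h 13.4, 18.1 and 26.8 CPM, and after 72 h 8.46, 14.2 and 24.2 CPM. Animal 206 was the lowest from 24 h onward and animal 202 the highest at 48 and 72 h, and animal 202 was the single animal that did not fall between 0 and 72 h. The log2 fold change at 72 h was -0.69 (95% interval -0.90 to -0.48). From 6 to 48 h it was -0.24 (-0.45 to -0.04), with 6 of 7 animals lower, and its edgeR adjusted p of 0.063 missed the threshold, which does not show that the level was the same. Without animal 202 this change was -0.31 with an edgeR adjusted p of 0.011, and over the alternatives other than the test against a 1.5-fold change the adjusted p ranged from 0.011 to 0.367. From 48 to 72 h all 7 animals fell.

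The deviations of the members from their time point means ran together across samples. Over the 300 pairs of members the median Pearson correlation of these deviations in 35 samples was 0.52, and 269 pairs were above 0. The highest was that of MRPL41 with MRPL55 (0.88) and the lowest that of MRPS2 with MRPS35 (-0.83). MRPS26 had the highest median correlation with the other members (0.72), while MRPS33 (0.24) and MRPL57 (0.27) had the lowest apart from MRPS35 (-0.56). The 35 samples come from 7 animals and each value shares its library, depth and normalization with the others, so that these correlations are a description.

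Reads of some members may be shared with neighbours. In RefSeq, 9 of the 25 overlap another gene, namely MRPL23 (a long non-coding RNA), MRPL30 (MITD1), MRPL40 (HIRA), MRPL55 (GUK1), MRPL57 (ZDHHC20), MRPS18C (ABRAXAS1), MRPS25 (a long non-coding RNA and a pseudogene), MRPS35 (REP15 and a pseudogene) and TIMM8B (NKAPD1). The deposited counts are labelled as counted on the reverse strand, and the study's methods describe strand-specific counts of the sense strand, although the option string printed there sets the unstranded mode. Which of these applied was not settled here, and the values of these 9 genes are less certain for it. The other 16, among them MRPS14, MRPL21, TOMM6 and TOMM7, overlap none.

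Other genes of the translation and energy machinery were also higher at 72 h. The 62 cytosolic ribosomal protein genes named by the source were all upregulated at 72 h, with a median log2 fold change of 0.78, and of the 36 nuclear genes of the respiratory chain, which the imported ribosomal proteins serve, 35 were upregulated and 1 downregulated, with a median of 0.72. Both lists, too, hold only genes with a symbol in the list of DE genes, so their counts at 72 h follow from the choice. Their counts from 6 to 48 h are not independent of it. In that comparison 61 of the 62 cytosolic ribosomal protein genes were higher at an FDR below 0.05, with a median of 0.26. Of the 36 respiratory chain genes 35 were higher, with a median of 0.34, and 1 was lower. Over all genes 15.7% were higher and 17.4% lower at that FDR. At 6 h the median against 0 h was 0.21 for cytosolic ribosomal proteins, of which 23 passed the FDR alone (1.28% of all genes did so in this direction), 0.11 for the respiratory chain with 0, and 0.09 for the members with 0. The differences between the lists were not tested.

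**Figure D4:**
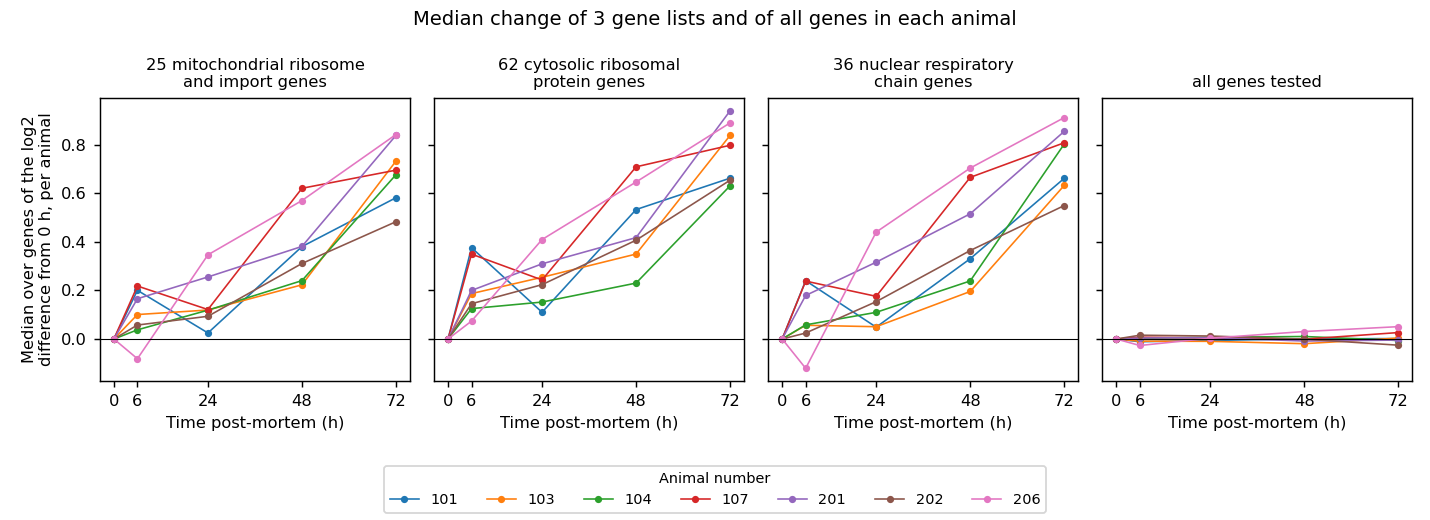
Median over genes of the log2 difference from the 0 h sample of the same animal, against time *post-mortem* in hours, with a line per animal for the 25 members, 62 cytosolic ribosomal protein genes, 36 nuclear respiratory chain genes and all 14630 genes tested. At 72 h the 7 animals lie between 0.48 and 0.84 for the members, and the median of all genes stays near 0.

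Proteins of the mitochondrial ribosome that carry other symbols followed the members. GADD45GIP1, a large subunit protein, and AURKAIP1, a small subunit protein, had log2 fold changes of 0.80 and 0.68 at 72 h and were both called. Between 6 and 48 h both were higher at an FDR below 0.05 (15.7% of all genes), by 0.29 each and in 7 of 7 animals. A symbol was available only for genes in the list of DE genes, and no other ribosomal protein outside the MRPL and MRPS prefixes had one.

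Among 23 other genes of import and protein maturation, 5 were named, of which 3 were upregulated and 2 downregulated at 72 h. A gene was named only through the list of DE genes. Being called at 72 h, in this list and in the next lists of mitochondrial genes, therefore follows from the choice. Nothing is read from these counts, beside 9.8% of all genes upregulated and 15.4% downregulated at 72 h. PAM16, part of the motor that pulls proteins into the matrix, went from 30.03 ± 3.24 to 54.7 ± 9.40 CPM (log2 fold change 0.86). HSPE1, the co-chaperone of the folding chamber in the matrix, changed by 0.67 and ROMO1, a small protein of the inner membrane, by 0.59. All 3 were also higher at 48 h than at 6 h at an FDR below 0.05 (15.7% of all genes), by 0.37, 0.29 and 0.23. XPNPEP3, a peptidase that trims imported proteins, changed by -0.99 at 72 h, and MTX3, an outer membrane protein of the metaxin family, by -1.43. From 6 to 48 h these 2 had log2 fold changes of -0.45 and -0.66 at an FDR below 0.05 (17.4% of all genes lower).

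Genes whose products help to build the mitochondrial ribosome or handle its RNA were divided. Of 20 genes in this list 7 were named, with 3 upregulated (9.8% of all genes) and 4 downregulated (15.4%) at 72 h. MTG1 and MALSU1, assembly factors of the large subunit, and SLIRP, a small RNA-binding protein, changed by 0.68, 0.64 and 0.90. LRPPRC, the partner with which SLIRP forms a complex that stabilizes mitochondrial messenger RNAs, moved the opposite way, from 112.4 ± 11.6 to 68.3 ± 13.5 CPM (log2 fold change -0.73, lower in 7 of 7 animals), while SLIRP went from 29.0 ± 1.59 to 54.4 ± 7.31 CPM and was higher in 7 of 7. From 6 to 48 h SLIRP was higher by 0.36 (edgeR adjusted p = 6.77e-04) and LRPPRC lower, with -0.28 (edgeR adjusted p = 5.35e-03).

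GRSF1, which binds RNA in mitochondrial granules, changed by -0.99, and the ribosomal RNA methyltransferases NSUN4 and MRM3 by -0.75 and -0.89 at 72 h. From 6 to 48 h GRSF1 was lower at an FDR below 0.05 (-0.49, in 7 of 7 animals), while NSUN4 (-0.29, edgeR adjusted p = 0.053) and MRM3 (-0.24, edgeR adjusted p = 0.128) missed it. Among 17 mitochondrial aminoacyl-tRNA synthetases, which load transfer RNAs with amino acids, the 4 that were named were all downregulated at 72 h (15.4% of all genes). These were LARS2 (-0.59), YARS2 (-0.82), EARS2 (-1.07) and PARS2 (-1.95). Of them YARS2 and EARS2 were lower at 48 h than at 6 h at an FDR below 0.05 (17.4% of all genes). The 2 largest changes were in genes at low levels. EARS2 had means of 1.15 CPM at 0 h and 0.53 CPM at 72 h, and PARS2 of 0.96 and 0.26 CPM.

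TFAM, which packages mitochondrial DNA and starts its transcription, was the 1 named gene of 10 in the list of mitochondrial DNA expression and went from 14.7 ± 1.45 to 5.37 ± 2.55 CPM (log2 fold change -1.495). It was lower in 7 of 7 animals at 48 h against 6 h as well, with -0.69 (edgeR adjusted p = 3.93e-03) and a fold above 1.5. Of 7 regulators of nuclear genes for mitochondria, PPARGC1B and GABPA were named and downregulated at 72 h (15.4% of all genes), with -1.56 and -0.70. PPARGC1B is a coactivator, and GABPA is a subunit of a transcription factor known to bind many of these genes. Both were lower at 48 h than at 6 h at an FDR below 0.05 (17.4% of all genes). None of 11 mitochondrial translation factors was named. A gene without a name here may have been tested and not called, or called without carrying a symbol, as 274 upregulated and 423 downregulated genes at 72 h were, so that no share of a list is given.

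**Figure D5:**
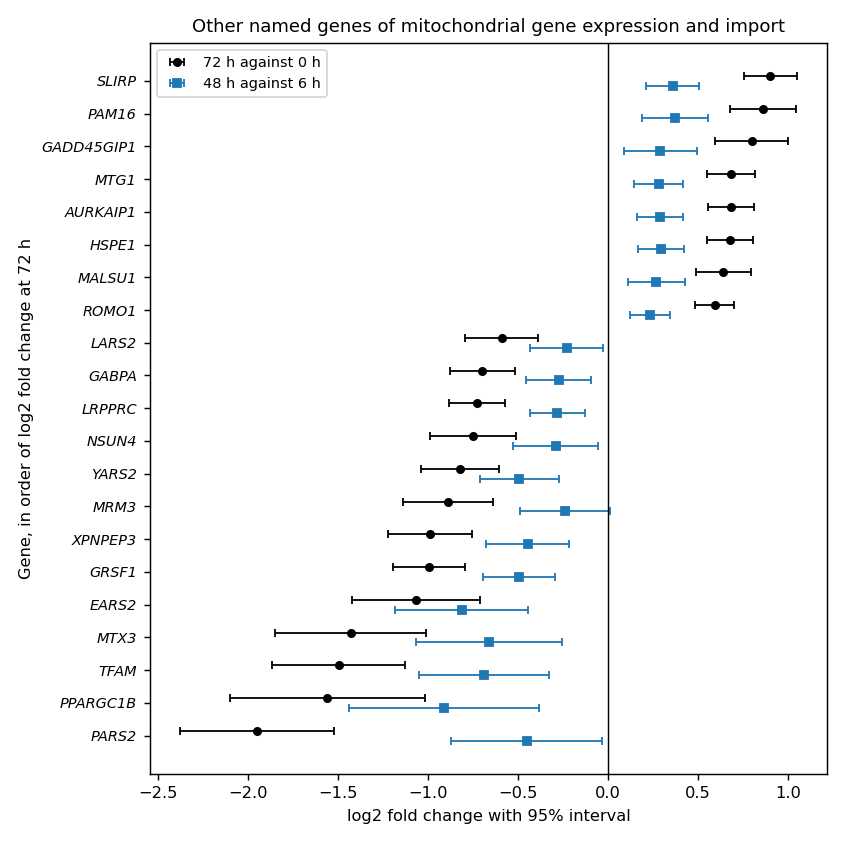
Log2 fold changes with 95% intervals of the 21 named genes of the import, assembly, aminoacyl-tRNA synthetase, mitochondrial DNA and regulator lists and of both extra ribosomal proteins, with 72 h against 0 h in black circles and 48 h against 6 h in blue squares. The 8 genes above 0 at 72 h are also above 0 at 48 h against 6 h with intervals that exclude 0. The 13 below 0 are led by PARS2 (a low level, 0.96 CPM on average at 0 h), PPARGC1B and TFAM.

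Markers of other cells in the cores changed as well, not all at the same steps as the members, and their part in the members' change was not tested. The 7 adipocyte markers changed mainly between 6 and 24 h, when 6 of the 7 were downregulated with a median log2 fold change of -3.27, while the members had a median of 0.05. At the FDR alone 6 were lower as well, beside 0.588% of all genes. From 24 to 48 h and from 48 to 72 h, when 24 members were higher at an FDR below 0.05, the adipocyte medians were -0.16 and 0.09. Their summed level ranged from 260 to 548 CPM at 0 h and from 99.8 to 213 CPM at 72 h, where all 7 were downregulated with a median log2 fold change of -3.64. By the same rule 15.4% of all genes were downregulated at 72 h. All 7 were lower at 48 h than at 6 h at an FDR below 0.05, beside 17.4% of all genes.

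Of 10 listed muscle fibre markers 3 carry a symbol, through the list of DE genes, and the rest were not compared. All 3 were called at 72 h, which follows from that choice. Their median log2 fold changes against 0 h were 0.22, 0.22, 0.52 and 0.83 at 6, 24, 48 and 72 h, beside 0.09, 0.14, 0.38 and 0.68 for the members. By step, the medians of the 3 were 0.04 from 6 to 24 h (range -0.02 to 0.04), 0.24 from 24 to 48 h (0.08 to 0.43) and 0.33 from 48 to 72 h (0.11 to 0.54). Those of the members were 0.05, 0.25 and 0.29. From 6 to 48 h the median of the 3 was 0.28, with a range of 0.11 to 0.40, beside 0.30 for the members. In that comparison 2 of the 3 were higher at an FDR below 0.05 (15.7% of all genes). The median of their summed level went from 26574 CPM at 0 h to 45866 CPM at 72 h. A likeness to the members was not tested.

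Markers of immune and connective tissue cells were measured at far lower levels or in part. Of 8 T and NK cell markers 6 were named, and 5 of these were called higher at 48 h against 6 h (0.991% of all genes). The median log2 fold change of the 6 was 0.80. Their sums ranged from 6.23 to 11.6 CPM at 0 h and from 13.1 to 17.3 CPM at 72 h. Of 5 macrophage markers 4 were named and downregulated at 72 h (15.4% of all genes). Their sums were 27.2 to 87.5 CPM at 0 h and 11.1 to 31.0 CPM at 72 h. At 48 h 3 of the 4 were lower than at 6 h at an FDR below 0.05 (17.4% of all genes), with a median of -0.69. Among 5 fibroblast markers PDGFRA was named, downregulated at 72 h and lower at 48 h than at 6 h at an FDR below 0.05 (-0.35). The 2 named of 4 erythroid markers were called higher at 48 h against 0 h (2.96% of all genes) and against 6 h (0.991%) but not at 72 h. Their sum was low, with a median of 0.217 CPM at 0 h and 5.02 CPM at 48 h. At 48 h it ran from 0.126 CPM in animal 201 to 72.1 CPM in animal 101. Animal 103 was the next highest, at 8.29 CPM. None of 5 endothelial markers was named. No named marker was at 0 in all libraries.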

How the data were processed

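Counts of reads per gene for 35 libraries (7 animals at 5 time points) were used as deposited. Per the submitters' processing notes, the authors used FastQC 0.11.8, Trimmomatic 0.39, STAR 2.7.0f and featureCounts 1.6.4 with the bovine assembly ARS-UCD1.2, and no normalization had been applied to the deposited counts. The libraries were made with a stranded mRNA kit. Total counts per library ranged from 20568418 to 104275821. Standard errors come from the spread left over all 35 libraries once the model has fitted animal and time point. They are not the spread of the changes of the 7 animals.

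Counts were analysed with edgeR 4.0.16 in R 4.3.3. Genes were kept by filterByExpr with time points as groups and a minimum count of 10, which left 14630 of 27607 genes, libraries were scaled by TMM, and a quasi-likelihood model with animal and time point was fitted to all 35 samples. P-values were adjusted by the Benjamini-Hochberg method over all genes tested (FDR), and DE genes were those with an FDR below 0.05 whose fold change exceeded 1.5. CPM values use the TMM factors, and log2 ratios within an animal use a prior count of 2. Standard errors were obtained from the fold change and the F statistic, and intervals cover 95%. The model was tested on simulated data with known fold changes. DESeq2 1.42.0 was run as an alternative, and the other alternatives are given with their effect in the closing section.

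Each animal was sampled at all 5 time points, so that samples with the same animal number come from 1 carcass. Deviations of such samples from the time point means correlated with a median r of 0.58 over 70 pairs (range 0.29 to 0.77), against -0.12 between different animals.

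Gene symbols came from the study's list of DE genes, which gave a symbol for 3106 of 3640 identifiers, and which was used in a shortened copy. The named genes are every member, and every gene of the pathway lists that carries a symbol in this copy and was called at any time point against 0 h. The members and the gene lists were chosen with earlier results of these data known. A planned comparison of all genes with the 4 prefixes could not be made, since their identifiers could not be paired with symbols. Sequences and positions are not reported here.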

Additional observations from a re-analysis of the deposited data

Results flagged for a closer look

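In 100 sets of 7 values (the 25 members at 6, 24, 48 and 72 h, each value being the log2 difference of an animal from its own 0 h sample), 5 held 1 animal far from the other 6 by Dixon's test, which is the 5% that chance gives. Of these 5, 4 concerned animal 206. At 6 h, MRPL12 was at -0.26 in animal 206 and between 0.01 and 0.17 in the others, and MRPL55 was at -0.21 against 0.04 to 0.19. At 24 h, MRPL41 was at 0.44 in animal 206 and between -0.14 and 0.10 in the others, while MRPS35 was at -0.43 against 0.00 to 0.13. The remaining one was MRPS17 at 48 h, with 0.66 in animal 107 and 0.24 to 0.42 in the others. The cause was not tested.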

How the results depend on the processing

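The alternatives were run for the members and not for the other gene lists, pathway genes or markers, and no member's log2 fold change at 72 h against 0 h or at 48 h against 6 h reversed its direction. Without the fold threshold, the members higher at an FDR below 0.05 in edgeR numbered 3 at 24 h and 24 at 48 h against 0 h, and 24 each in the comparisons of 48 h with 6 h, 48 h with 24 h and 72 h with 48 h, where 1 was lower in the last. The 1 member called at 48 h against 0 h became 2 with DESeq2's size factors, upper quartile factors, a filter of 1 CPM in 7 samples or DESeq2's Wald test, and 0 with no filter, with the test against a 1.5-fold change (glmTreat) or with RIN as a covariate, and it ranged from 0 to 2 when each animal was left out. At 72 h against 0 h, glmTreat gave 8 higher and 0 lower and RIN gave 0 lower, and leaving out each animal gave 18 to 24 higher, with the 18 found without animal 201. Apart from RIN for 48 h against 24 h, shares of all genes are not set beside the counts in this section. A general loss of calls was there not told apart from one among the members.

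Without the animal as a replicate block, members higher at an FDR below 0.05 numbered 11 for 48 h against 6 h and 0 for 48 h against 24 h, and 2 were called at 48 h against 0 h, while the block changed no other call by over 1.5 times. Counts at the FDR alone under other settings were chosen after seeing the data. For 48 h against 24 h, RIN gave 4 higher (2.47% of all genes, against 9.56% without RIN), and leaving out each animal gave 7 to 24 higher. In that comparison and in 48 h against 6 h, 0 to 1 were lower, the 1 being MRPS35 without animal 202. The cause of these changes was not tested, except that the fold threshold acts by construction. Another scaling moved the median log2 fold change of all genes by at most 0.06. The alternative without mitochondrially encoded genes was not run, because their identifiers were not paired with names.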
